A study of Mus musculus with 28 samples.

Results

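Elastic fibre genes were followed in the outflow vein of the mouse carotid–jugular arteriovenous fistula (AVF), a vein joined surgically to an artery. The set was a named list of 10 genes among the 56980 of the bulk table, namely Eln, Fbn1, Fbln1, Fbln2, Fbln5, Efemp2, Mfap4, Mfap5, Emilin1, and Ltbp4. All 10 were found in the bulk table and in the 3 single-cell matrices, and all 10 passed the minimum level for testing. Bulk RNA sequencing covered 7 contralateral jugular veins (5 female, 2 male), 8 early AVFs (3 female, 5 male, labelled day 3), 5 mid AVFs (3 female, 2 male, day 10), and 5 late AVFs (3 female, 2 male, day 21), with 1 library per vessel. Single-cell RNA sequencing covered 1 library of contralateral veins, 1 of early AVFs, and 1 of late AVFs, each a pool of 10 vessels from male and female mice, with no day in its label. Every mouse was of the C57BL/6 strain and had had most of its kidney tissue removed by nephrectomy before the AVF was made, with the cut end of the jugular vein sewn onto the carotid artery from its side. The contralateral veins therefore came from operated animals with reduced kidney function and are not naive veins.

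Elastic fibres are laid down outside the cell as a core of cross-linked elastin on a scaffold of microfibrils. Elastin is secreted as soluble tropoelastin, which fibulins and microfibril proteins carry and align before lysyl oxidases cross-link it. In vessels the fibres give the wall its recoil, and mature fibres turn over very slowly. Fibrillin-1 forms the microfibril, and latent TGF-β binding proteins tie the growth factor to it.

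Bulk depth ranged from 20254173 to 67457501 counts per library. Values below are counts-per-million (CPM) after TMM scaling, and the fewest counts of a member in any library were 41, for Emilin1 in a contralateral vein. Median rank correlation with the other libraries of the group was 0.587 to 0.741 for contralateral veins and at least 0.801 in AVFs. Genes were called differentially expressed (DEGs) at an adjusted p under 0.01 (edgeR quasi-likelihood test, Benjamini–Hochberg over the 12673 genes tested) where the log2 fold change reached 1 in either direction. Markers of other cells moved between the groups. Summed smooth muscle markers were 9760 to 21318 CPM in contralateral veins against 1070 to 3971 CPM in all AVFs, and 6, 5, and 5 of 8 were lower DEGs in early, mid, and late AVFs. Summed endothelial markers were 2187 to 3685 CPM in contralateral veins and 336 to 784 CPM in AVFs, with 5, 6, and 5 of 8 lower DEGs. Fibroblast marker sums overlapped, but their median was 23879 CPM in contralateral veins (13195 to 32711 CPM) and 13245 CPM in early AVFs. Of these 6 markers, 3, 1, and 0 were lower DEGs in early, mid, and late AVFs. Early libraries 5, 6, and 7 had only 5886, 3382, and 2333 CPM, against 12325 to 19642 CPM in the other 5 early AVFs. Skeletal muscle markers summed to 0.21 to 30.9 CPM in contralateral veins and to 1.06 to 7331 CPM in AVFs, and 4 of 4 were higher DEGs at each time. In whole vessels, fewer cells of a type and less RNA per cell cannot be told apart, and the part of these markers in the results below was not tested.

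The stretches before the start sites of 4 genes are shown because these genes were called in bulk, in both directions. Ltbp4 and Fbln1 were called lower in early AVFs, and Fbn1 and Fbln2 were called higher in mid AVFs. They are the 250 bases upstream of the 5′-most RefSeq start (GRCm38.p6), 5′ to 3′ on the gene's strand. GENCODE, whose gene coordinates are given below, starts some of these genes elsewhere, so that the Fbn1 and Fbln2 windows lie wholly and the Ltbp4 window partly inside the GENCODE gene. The windows are chr7:27337613-27337862 on the minus strand for Ltbp4, chr15:85205699-85205948 on the plus strand for Fbln1, chr2:125506439-125506688 on the minus strand for Fbn1, and chr6:91212514-91212763 on the plus strand for Fbln2. Capitals mark matches on either strand to 3 short motifs, of which the first was the GC box (GGGCGG). The second was the CCAAT box, searched by the letters of its name. The third was the AP-1 site (TGANTCA).
Ltbp4: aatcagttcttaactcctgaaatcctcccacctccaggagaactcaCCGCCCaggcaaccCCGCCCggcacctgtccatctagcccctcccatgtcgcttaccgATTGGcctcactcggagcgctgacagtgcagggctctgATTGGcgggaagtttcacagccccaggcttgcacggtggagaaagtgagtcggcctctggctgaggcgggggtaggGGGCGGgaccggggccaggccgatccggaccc
Fbln1: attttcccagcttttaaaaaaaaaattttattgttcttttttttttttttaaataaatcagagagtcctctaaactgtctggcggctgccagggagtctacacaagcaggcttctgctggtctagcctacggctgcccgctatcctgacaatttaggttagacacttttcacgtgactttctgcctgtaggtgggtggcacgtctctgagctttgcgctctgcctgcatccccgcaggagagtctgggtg
Fbn1: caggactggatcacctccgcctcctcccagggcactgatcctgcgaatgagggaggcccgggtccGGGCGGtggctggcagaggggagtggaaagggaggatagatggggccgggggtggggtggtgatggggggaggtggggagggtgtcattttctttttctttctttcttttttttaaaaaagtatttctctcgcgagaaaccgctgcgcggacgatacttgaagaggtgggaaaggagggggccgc
Fbln2: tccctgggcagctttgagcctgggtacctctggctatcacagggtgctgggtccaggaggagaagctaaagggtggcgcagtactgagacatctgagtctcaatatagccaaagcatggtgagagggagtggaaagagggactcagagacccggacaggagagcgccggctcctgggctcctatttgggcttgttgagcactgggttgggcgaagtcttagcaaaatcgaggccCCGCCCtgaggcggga
The Ltbp4 window held 3 GC boxes and 2 CCAAT boxes, the Fbn1 and Fbln2 windows held 1 GC box each, and the Fbln1 window held no match to any of the 3 motifs. Among windows of the same length before 27025 genes, 32.96% held a GC box, 34.5% a CCAAT box, and 6.85% an AP-1 site. Of the 10 genes, 7 had a sequence, and Eln, Mfap4, and Mfap5 did not.

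**Figure D1:**
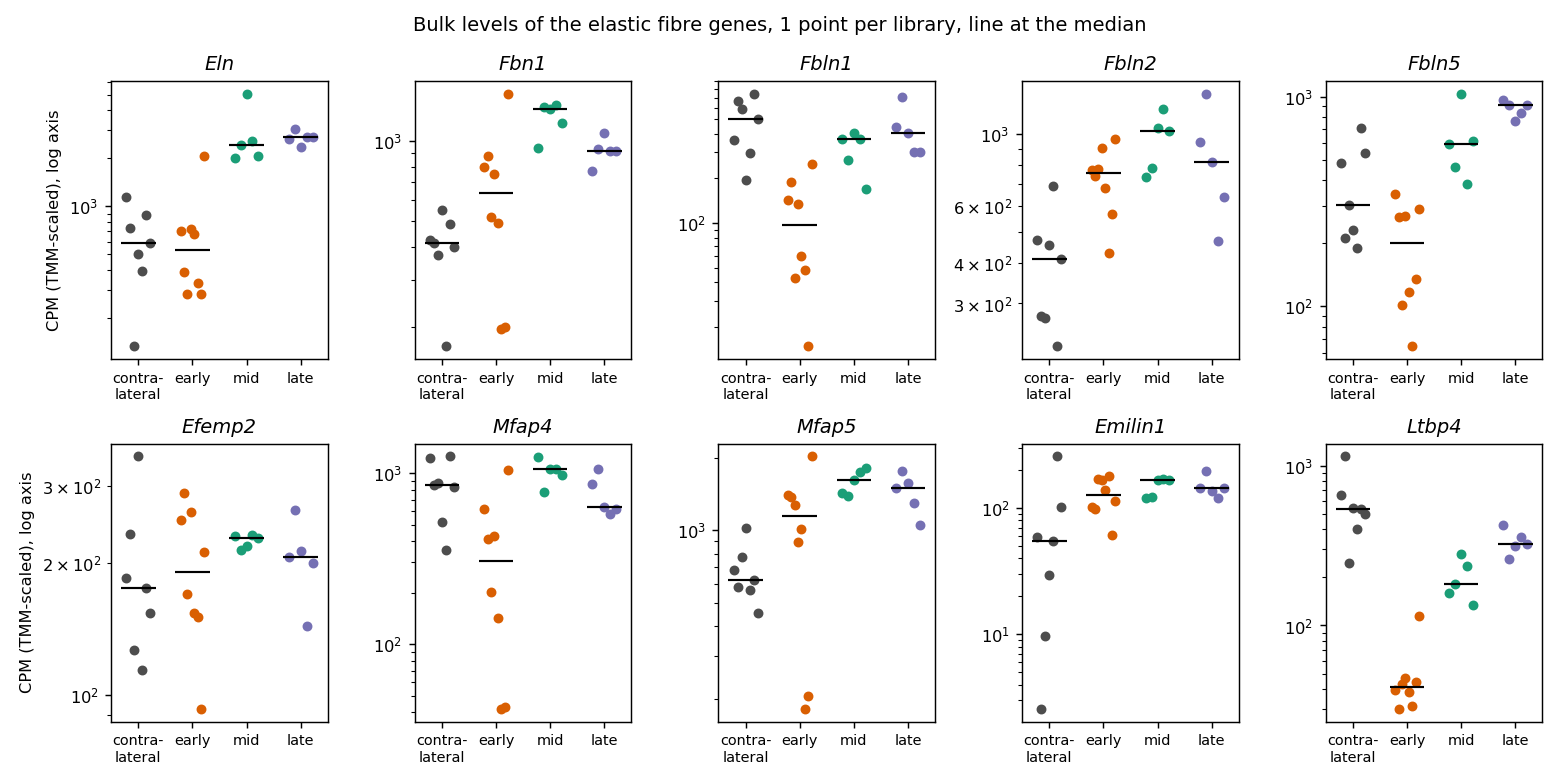
Bulk levels of the 10 elastic fibre genes in CPM on a log axis, with 1 point per library and a line at the group median. Every early library lies below every contralateral library for Ltbp4, and every mid and late library lies above every contralateral library for Eln.

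Ltbp4, Fbln1, Eln, Fbn1, and Fbln2 were the members called between AVFs and contralateral veins. In early AVFs, Ltbp4 and Fbln1 were called lower and no member higher. In mid AVFs, Eln, Fbn1, and Fbln2 were called higher and Ltbp4 lower, and in late AVFs Eln and Fbln2 were called higher. A gene not called may still differ. Mfap5 in mid and late AVFs, and Fbn1 and Fbln5 in late AVFs, lay above every contralateral vein in every library. The same held for 7.32% of all genes in mid and 6.25% in late AVFs. The early calls were 2 of 10 members, both lower, where 12.6% of all genes tested were called (6.17% higher, 6.45% lower). The mid calls were 4 of 10 (3 higher) against 6.05% of all genes (2.74% higher, 3.31% lower), and the late calls 2 of 10, both higher, against 5.33% (2.49% higher, 2.85% lower). The early share is thus near that of all genes. The members were chosen with earlier results of these data known, so these shares are no independent test. Over the 10 members the median log2 fold change was 0.09 early, 0.86 mid, and 1.05 late, against −0.01, −0.10, and −0.09 over all genes. With sample quality weights (voom) or with female mice alone, only Ltbp4 passed in early AVFs and no member in mid or late AVFs. Calls over all genes fell as well, to 4.64%, 2.33%, and 1.58% with the weights and to 2.9%, 1.78%, and 1.61% with female mice. The 3 comparisons share the same 7 contralateral libraries.

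Ltbp4 (chr7:27305136-27337692, minus strand) encodes latent TGF-β binding protein 4, which holds the latent growth factor in the matrix and helps fibulin-5 deposit elastin. Its level was 247, 533, and 1143 CPM (lowest, median, highest) in contralateral veins and 30.0, 41.2, and 115 CPM in early AVFs. The groups did not overlap, which held for 2.34% of all genes in this direction. The early fall was 11.9-fold (log2 fold change −3.57, SE 0.31, adjusted p = 4.72e-09). Mid AVFs had 159.8, 182, 278, 234, and 134 CPM, of which all but 1 lay below the lowest contralateral vein (−1.54, SE 0.34, adjusted p = 0.0030). The mid call was lost without mid library 9 (adjusted p = 0.0125) or 15 (adjusted p = 0.0142) and with only the 2 groups in the fit (−1.50, adjusted p = 0.0122), while the early call was kept without any 1 library and in female mice alone (−3.17, adjusted p = 0.0037). Late AVFs had 424, 262, 314, 359.7, and 324 CPM, all within the contralateral range (−0.77, SE 0.33, adjusted p = 0.14). Summed markers of smooth muscle and endothelium, which were also lower in every AVF, are given above. Summed markers of quiescent fibroblasts were 1673 to 4435 CPM in contralateral veins and 123 to 673 CPM in early AVFs, with 6 of 6 lower DEGs.

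Eln (chr5:134702593-134747323, minus strand) encodes tropoelastin. Contralateral veins had 132, 589, and 1137 CPM (lowest, median, highest) and early AVFs 281, 529, and 2073 CPM, which overlapped. The early log2 fold change was 0.13 (SE 0.40, adjusted p = 0.86). Mid AVFs had 2001, 2433, 5097, 2567, and 2070.2 CPM, and late AVFs had 2642, 3065, 2348, 2708, and 2717 CPM. Every mid and every late AVF lay above every contralateral vein, as for 7.32% and 6.25% of all genes. The rise was 4.54-fold in mid AVFs (log2 2.18, SE 0.45, adjusted p = 0.0015) and 4.32-fold in late AVFs (2.11, SE 0.45, adjusted p = 0.0024). Without mid library 13, which had the highest value, the mid change was 1.81 with an adjusted p of 0.0119 and was no longer called. With the quality weights, neither change passed the threshold (adjusted p = 0.0661 in mid and 0.0805 in late AVFs), and neither did with female mice alone (0.0440 and 0.0712).

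Fbn1 rose in mid AVFs, and its partner Mfap5 did not pass. Fbn1 (chr2:125300594-125507993, minus strand) encodes fibrillin-1, the main microfibril protein, and Mfap5 (chr6:122505845-122529290, plus strand) encodes a small glycoprotein bound to it. Fbn1 had 169.6, 415, and 551 CPM in contralateral veins and 196, 636, and 1506 CPM in early AVFs (lowest, median, highest). Mid AVFs had 939, 1341, 1314, 1364, and 1165 CPM, and late AVFs had 772, 933, 1071, 919.6, and 921 CPM. Both groups lay wholly above the contralateral veins, as for 7.32% of all genes in mid and 6.25% in late AVFs. The rise was 3.04-fold in mid AVFs (log2 1.60, SE 0.35, adjusted p = 0.0029). In late AVFs it was 1.19 on the log2 scale and did not pass (SE 0.35, adjusted p = 0.0270). The mid call was lost without mid library 12 (adjusted p = 0.0123) or 13 (adjusted p = 0.0117). Mfap5 went with it in sign: contralateral veins had 454, 621, and 1017 CPM, mid AVFs 1420.4, 1387, 1610.5, 1736, and 1807 CPM, and late AVFs 1499.6, 1766, 1569, 1301, and 1047 CPM. These groups did not overlap either, but the log2 fold changes of 1.25 (SE 0.38, adjusted p = 0.0314) and 1.10 (SE 0.38, adjusted p = 0.0616) were not called. Early AVFs had 181, 1145, and 2025 CPM of Mfap5 (log2 0.64, SE 0.34, adjusted p = 0.19), with the 2 lowest values in the libraries with the fewest fibroblast markers. Without these libraries (early 6 and 7), an alternative chosen after seeing the data, the early log2 fold changes of Fbn1 and Mfap5 were 1.10 (adjusted p = 0.0019) and 1.06 (adjusted p = 0.00039). These libraries also had the 2 lowest early values of Fbn1, so leaving them out had to raise both early changes. Early library 5, also low in fibroblast markers, was kept. The early values of this fit are therefore no support for a rise. In the same fit, Mfap5 was also a DEG in mid and late AVFs, and Fbn1 in late AVFs (1.28, adjusted p = 0.0012). With only the 2 groups in the fit, Fbn1 was called in late AVFs (1.23, adjusted p = 0.0068), and Mfap5 in mid (adjusted p = 0.0011) and late AVFs (adjusted p = 0.0056).

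The fibulins, glycoproteins that bridge elastin and microfibrils, did not move as a block. Fbln1 (chr15:85205949-85286535, plus strand) encodes fibulin-1, a component of the elastin core and of basement membranes. It had 194, 505, and 744 CPM in contralateral veins and 14.8, 96.8, and 251 CPM in early AVFs (lowest, median, highest), a 4.34-fold fall (log2 −2.12, SE 0.42, adjusted p = 0.00059). In all but 1 early AVF it lay below the lowest contralateral vein. Mid AVFs had 369, 267, 402, 366, and 169.6 CPM (−0.61, SE 0.47, adjusted p = 0.46) and late AVFs 444, 709, 406, 299, and 302 CPM (−0.15, SE 0.47, adjusted p = 0.88), and both overlapped the contralateral veins. The early fall did not pass with sample quality weights (−1.61, adjusted p = 0.175) or with female mice alone (−1.94, adjusted p = 0.139).

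Fbln2 (chr6:91212455-91272540, plus strand) encodes fibulin-2, a binder of fibrillin and elastin at the rim of the fibre. Contralateral veins had 221, 410.3, and 692 CPM, and early AVFs had 428.3, 758, and 963 CPM (lowest, median, highest). The early log2 fold change of 0.87 missed both the size and the adjusted p of a DEG (SE 0.24, adjusted p = 0.0106), although 5 of 8 libraries lay above the highest contralateral vein. Males were 5 of 8 in the early and 2 of 7 in the contralateral group, and Fbln2 was called with a term for sex (1.02, adjusted p = 0.0050). It was also called without early libraries 6 and 7 (1.08, adjusted p = 0.0035). These had the lowest early values of Fbln2 (428.3 and 567 CPM), so leaving them out had to raise the change. Mid AVFs had 735, 786, 1041, 1196, and 1021 CPM and did not overlap the contralateral veins, as for 7.32% of all genes in this direction. The rise was 2.39-fold (log2 1.26, SE 0.27, adjusted p = 0.0022). Its call was lost without mid library 14 (adjusted p = 0.0103) and with only the 2 groups in the fit (adjusted p = 0.0105). Late AVFs had 943, 1330.0, 821, 468, and 639 CPM, of which 3 of 5 lay above the highest contralateral vein (2.11-fold, log2 1.07, SE 0.27, adjusted p = 0.0093). The late call was near its threshold and was lost in 18 of 25 fits that left out 1 library, with adjusted p up to 0.0525 without late library 17, and with only the 2 groups (adjusted p = 0.0594).

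Fbln5 (chr12:101746565-101819055, minus strand) encodes fibulin-5, which binds tropoelastin, lysyl oxidase-like 1, and integrins. It had 190.3, 305, and 712 CPM in contralateral veins and 64.4, 200.4, and 344 CPM in early AVFs (lowest, median, highest; log2 −0.94, SE 0.33, adjusted p = 0.0407). Mid AVFs had 598, 464, 1036, 383, and 618 CPM (0.70, SE 0.37, adjusted p = 0.24). Late AVFs had 966, 914, 769.7, 842, and 919 CPM, every one above every contralateral vein, as for 6.25% of all genes. The change of 1.21 on the log2 scale did not pass (SE 0.37, adjusted p = 0.0338).

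Mfap4, Efemp2, and Emilin1, like Mfap5, were called in no comparison. Mfap4 (chr11:61485431-61488900, plus strand) encodes a fibrinogen-domain protein that binds fibrillin and tropoelastin. It ranged from 357 to 1252 CPM in contralateral veins, 41.6 to 1042 CPM in early AVFs, 778 to 1234 CPM in mid AVFs, and 579 to 1061 CPM in late AVFs. Its early log2 fold change was −1.21 (SE 0.47, adjusted p = 0.0626), and it was called at −1.72 (adjusted p = 0.0069) without early library 10, whose value was the highest of its group. Efemp2 (chr19:5473954-5482517, plus strand), which encodes fibulin-4, needed to recruit lysyl oxidase to elastin, ranged from 114 to 349.9 CPM in contralateral veins and from 92.8 to 289 CPM in AVFs. Its log2 fold changes against contralateral veins were 0.05 (SE 0.24), 0.24 (SE 0.27), and 0.10 (SE 0.27) at the 3 times, and the early and late signs turned under other settings. Emilin1 (chr5:30913402-30921277, plus strand), a glycoprotein at the elastin and microfibril interface, ranged from 2.56 to 256 CPM in contralateral veins and from 60.7 to 195 CPM in AVFs, and its log2 fold changes of 0.81, 1.02, and 1.02 had SEs of 0.52 to 0.57. Without contralateral library 632, the highest of its group, they were 1.59, 1.80, and 1.79, and none was called.

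**Figure D2:**
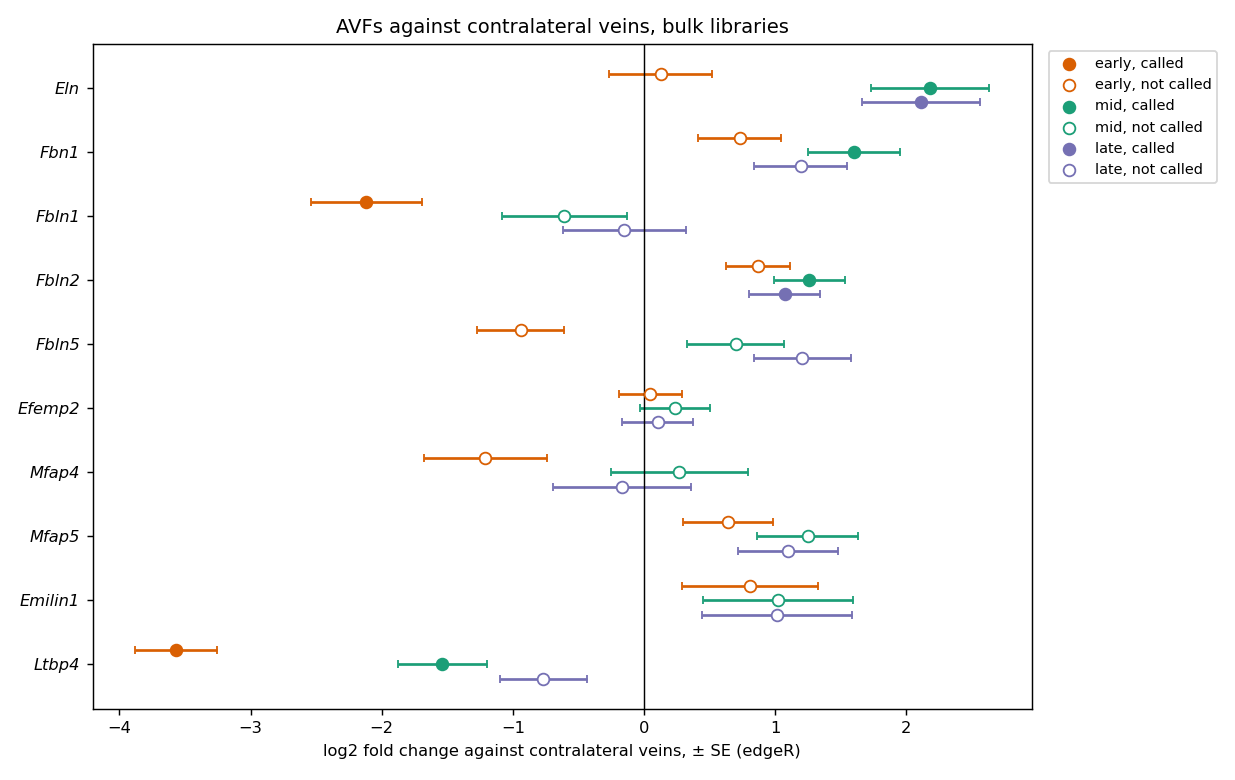
Log2 fold changes of early, mid, and late AVFs against contralateral veins for the 10 genes, with bars of 1 SE from edgeR and filled points for DEGs. Ltbp4 lies at −3.57 in early AVFs and moves toward 0 at later times, and Eln lies at 0.13, 2.18, and 2.11.

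The changes within AVFs ran upward from the early time. Between early and late AVFs, Ltbp4, Fbln5, Eln, and Fbln1 rose, 4 of 10 members where 3.01% of all genes tested were called (0.726% higher, 2.28% lower). Ltbp4 rose by 2.80 on the log2 scale (SE 0.32, adjusted p = 1.57e-05) and Fbln5 by 2.15 (SE 0.36, adjusted p = 0.0015). The rise was 1.99 in Eln (SE 0.43, adjusted p = 0.0052) and 1.97 in Fbln1 (SE 0.45, adjusted p = 0.0069). In these 4 genes the early and late libraries did not overlap, as for 7.16% of all genes in this direction. Fbln5 thus ranged from 64.4 to 344 CPM in early and from 769.7 to 966 CPM in late AVFs. The calls of Eln and Fbln1 were lost in 8 and 9 of 25 fits without 1 library and without early libraries 6 and 7 (adjusted p = 0.0213 and 0.0148), and that of Fbln1 also with no minimum count, filterByExpr, a term for sex, or only the 2 groups (adjusted p from 0.0104 to 0.0168), whereas those of Ltbp4 and Fbln5 were kept in all of these fits. With female mice alone, none of the 4 passed (adjusted p from 0.151 to 0.676).

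Between early and mid AVFs, Ltbp4 was the only DEG of all genes tested (0.00789%), and it rose by 2.03 on the log2 scale (SE 0.31, adjusted p = 0.0084). Mid and early libraries did not overlap for Ltbp4 (134 to 278 against 30.0 to 115 CPM) or Fbln5, as for 3.31% of all genes in this direction. This call was lost in 18 of 25 fits without 1 library and under 6 other settings (adjusted p from 0.0107 to 0.314). Eln (2.06, SE 0.43) and Fbln5 (1.64, SE 0.36) had an adjusted p of 0.0131 each. No gene was a DEG between mid and late AVFs (0% of 12673), where 39 genes (0.308%) had an unadjusted p under 0.05. Ltbp4 was the only member among these, at 0.77 on the log2 scale (SE 0.35, unadjusted p = 0.039).

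The order of the genes by level changed after surgery. Per kilobase of exon (GENCODE, GRCm38), Mfap4 led in contralateral veins with 440 ± 173 CPM per kb (SD, n = 7) and Emilin1 was last with 14.8 ± 17.7. Mfap5 and Mfap4 held the first 2 places in every group, and their mean ± SD intervals overlapped in early, mid, and late AVFs. Eln moved from the fifth place (77.0 ± 40.7) to the third in mid (349.9 ± 159) and late AVFs (333 ± 31.5), and Fbln1 moved from the third (109.7 ± 46.5) to the ninth in early AVFs (25.3 ± 18.9). The mean ± SD intervals of Eln in mid and late AVFs overlapped those of Mfap5 and Mfap4, so its order among these is not resolved. Ltbp4 moved from the fourth place (88.8 ± 43.6) to the last in early AVFs (7.49 ± 4.24). In contralateral veins, neighbours from Fbln1 down to Fbln5 (55.3 ± 28.8) lay within 1 SD of each other, so their starting places are not resolved. In early AVFs, neighbours from Fbln5 (28.8 ± 15.2) to Fbln1 lay within 1 SD of each other. Exons of Eln, Fbn1, Efemp2, and Mfap4 overlap a gene on the other strand, by 267, 2442, 173, and 89 bases at most, and it is not given whether counting used strand.

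Sex was tested as an interaction with group. No member passed an adjusted p of 0.05 for the sex by group terms (lowest 0.855, Emilin1, unadjusted p = 0.0174), and 13 of all genes did. With 2 males in 3 of the groups, this test covers only large differences.

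The nearest patterns to each member were sought over the 25 libraries, as the smallest mean absolute difference of log2 CPM after centring each gene. The closest pair of members was Fbn1 and Mfap5 (0.33), and the genes nearest to Fbn1 were Col6a3 (0.28), Col5a2, and Fstl1. Those nearest to Eln were Scara3 (0.56), Col6a3, and Prelp. Those nearest to Ltbp4 were Lamb2 (0.48), a laminin chain, Pdgfd, and Abi3bp. Mfap4 was nearest to Col14a1 (0.38), Fbln5 to Igfbp4 (0.38), Fbln1 to C1s1 (0.46), Fbln2 to Plscr3 (0.30), Mfap5 to Igf1 (0.26), Efemp2 to Tmed9 (0.21), and Emilin1 to Fbxo42 (0.33).

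Other genes of elastic fibre assembly and breakdown were read as 5 lists of 39 genes, of which 35 were tested. Like the members, these lists were chosen with earlier results of these data known, so their shares are no independent test. In early AVFs 7 were higher and 5 lower DEGs (34.3% of 35, against 12.6% of all genes), in mid AVFs 7 and 1 (22.9%, against 6.05%), and in late AVFs 5 and 1 (17.1%, against 5.33%). The median log2 fold change over the 35 was 0.26, 0.34, and 0.67 at the 3 times. Of 16 microfibril and adaptor partners, 1 was higher and 5 were lower in early AVFs, where 6.17% of all genes were higher and 6.45% lower. Fbln7, a fibulin, had 42.7 to 276 CPM in contralateral veins and 1.62 to 41.1 CPM in early AVFs (log2 −3.64, SE 0.47, adjusted p = 2.32e-06). These did not overlap, as for 2.34% of all genes in this direction. Ltbp2, which binds fibulin-5 and fibrillin, had 0 to 36.6 CPM in contralateral veins, 31.0 to 195 CPM in early, 161 to 284 CPM in mid, and 311 to 467 CPM in late AVFs (log2 2.95, 4.27, and 5.00, SEs 0.73 to 0.83, adjusted p = 0.0039, 0.00064, and 0.00021). Fbn2, the second fibrillin, had a median of 4.24 CPM in contralateral veins and 85.4 CPM in mid AVFs (log2 4.25, SE 1.04, adjusted p = 0.0068), and it did not pass in early or late AVFs (adjusted p = 0.0134 and 0.0455). Mfap2, a fibrillin-bound glycoprotein, had medians of 103, 158, 303, and 209 CPM in the 4 groups and was not called (adjusted p from 0.0327 to 0.333).

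Of the 5 cross-linking enzymes, 2 were higher at each time and none lower, where 6.17%, 2.74%, and 2.49% of all genes were higher. Lox, the founding lysyl oxidase, had medians of 156 CPM in contralateral veins and 686, 687, and 632 CPM in early, mid, and late AVFs (log2 1.82, 2.14, and 1.90, SEs 0.40 to 0.44, adjusted p = 0.0016, 0.0015, and 0.0047). Loxl1, the form bound by fibulin-5, rose in mid and late AVFs (log2 1.18 at both times, SE 0.28, adjusted p = 0.0049 and 0.0055), and Loxl2 rose in early AVFs (2.36, SE 0.48, adjusted p = 0.00076). Lox therefore passed at day 3, when Eln was at 0.13 (adjusted p = 0.86). Of the 7 proteases tested, Mmp12, the macrophage elastase, and Ctss, an elastolytic cathepsin, were higher at all 3 times and no other was called. Mmp12 had 0 to 25.3 CPM in contralateral veins, 49.98 to 353 CPM in early, 509 to 811 CPM in mid, and 134 to 473 CPM in late AVFs (log2 5.40, 7.24, and 6.40, SEs 0.96 to 1.07, adjusted p = 0.00015, 3.82e-05, and 0.00016). Ctss rose by 3.48, 2.21, and 1.71 on the log2 scale (SE 0.31 each, adjusted p = 5.78e-09, 2.07e-05, and 0.00052). Among 4 elastase inhibitors tested, Slpi was higher in early (log2 6.14, SE 1.08, adjusted p = 0.00014) and mid AVFs (4.30, SE 1.03, adjusted p = 0.0058). Neu1, of the elastin receptor complex, was higher in early AVFs (1.28, SE 0.35, adjusted p = 0.0088). Summed monocyte and macrophage markers were 746 to 2298 CPM in contralateral veins and 2813 to 8459 CPM in early AVFs, with 6 of 8 higher DEGs, and all 5 neutrophil markers tested were higher there.

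The single-cell libraries show in which cells the transcripts lay. Of 26438 barcodes, 16893 were kept (6319 contralateral, 4753 early, 5821 late), with medians of 2751, 8951, and 15425 UMIs. Clusters were made without the elastic fibre genes and named from marker lists, so fibroblasts, smooth muscle cells, and other classes here are cells like the named type. Barcodes shared between libraries numbered 14 to 19 in any pair. The dissociation mix itself held elastase and collagenases, and yields of cell classes may not equal their shares in the vessel: smooth muscle cells were 41 in the contralateral library, 262 in early, and 563 in late. Levels are again CPM, here of the UMIs of a class. With 1 library per condition no test was possible, and intervals are exact 95% Poisson intervals that cover counting error only. Most fibroblasts of the contralateral library fell in another cluster (led by Inmt and C7) than those of the AVF libraries (led by Ptx3 and Tnfaip6).

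Fibroblasts held the highest level of 7 members in contralateral veins, 6 in early AVFs, and 5 in late AVFs. Fbn1, Fbln1, Efemp2, and Mfap5 were highest in fibroblasts in all 3 libraries. Ltbp4 was highest in endothelial cells in all 3. Eln, Fbln5, and Emilin1 were highest in smooth muscle cells in both AVF libraries, and Mfap4 in the late one. T and NK cells, which should lack these transcripts, gave the background: for Eln it was 18.4, 217, and 98.3 CPM in the contralateral, early, and late library, and for the other 9 genes it was at most 47.6.

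The level of Eln in smooth muscle cells was higher in the AVF libraries than in the contralateral one. In smooth muscle cells it was at 730 CPM in contralateral veins (interval 644 to 824), 3857 in early AVFs (3803 to 3911), and 5618 in late AVFs (5578 to 5660). In fibroblasts it was at 457 (445 to 469), 1555 (1532 to 1578), and 943 (934 to 951). In endothelial cells it was at 843 (810 to 876), 581 (525 to 641), and 1093 (1005 to 1186). Of all Eln UMIs, smooth muscle cells held 2.91%, 44.7%, and 58.8%, fibroblasts 65.8%, 40.3%, and 37.9%, and endothelial cells 27.8%, 0.91%, and 0.469%. These shares follow both the level and the number of cells recovered, with 41, 262, and 563 smooth muscle cells in the 3 libraries. Summed smooth muscle markers of the bulk libraries went the other way and were lower in every AVF than in every contralateral vein. With up to 20% mitochondrial counts allowed, smooth muscle cells (945) led in the contralateral library too.

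**Figure D3:**
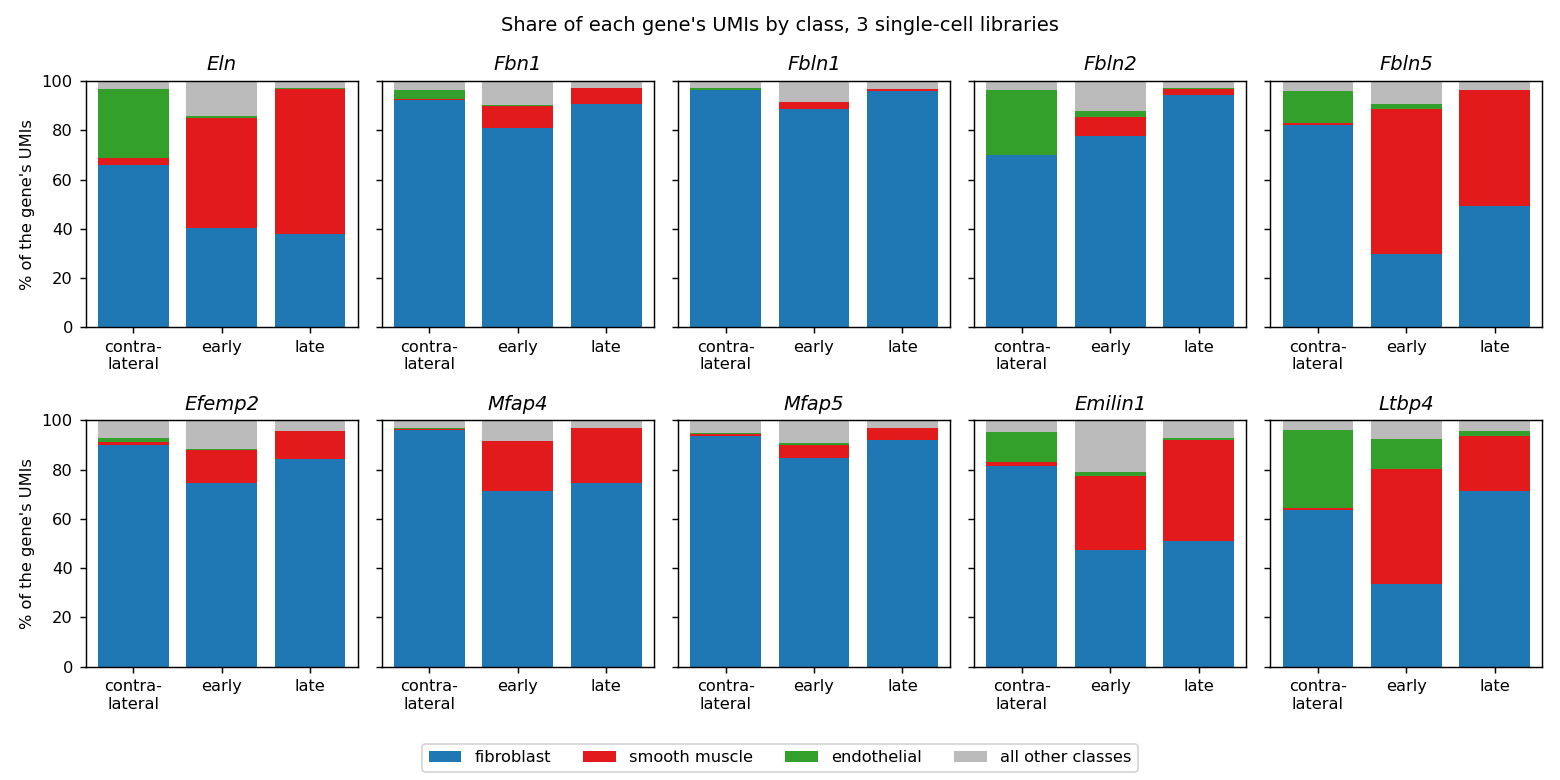
Share of each gene's UMIs held by fibroblasts, smooth muscle cells, endothelial cells, and all other classes, in percent, in the contralateral, early, and late single-cell library. The smooth muscle share of Eln goes from 2.91% to 58.8%, while fibroblasts keep most of Fbn1, Fbln1, Fbln2, Efemp2, Mfap4, and Mfap5 in every library. Shares also follow the cells recovered, with 41, 262, and 563 smooth muscle cells in the contralateral, early, and late library.

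Fbln5 followed Eln in smooth muscle cells, at 181 (140 to 231), 821 (796 to 846), and 997 (980.1 to 1015) CPM. In fibroblasts it was at 388 (377 to 398), 186 (178 to 194), and 272 (268 to 277), so the early fibroblasts had the lowest level. Mfap4 in smooth muscle cells was at 30.7 (15.3 to 54.8) in the contralateral library, near the background there, and at 573 and 662 in early and late AVFs. The contralateral values of both genes rest on 65 and 11 UMIs in 41 cells.

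Ltbp4 and Fbln1 were lower in early fibroblasts. Ltbp4 was at 486 CPM in contralateral fibroblasts (474 to 499), 91.7 in early (86.2 to 97.4), and 341 in late (336 to 346). In endothelial cells it was at 1049 (1012 to 1086), 540.2 (487 to 598), and 767 (694 to 845), and in smooth muscle cells at 173 (132 to 222), 289 (274 to 304), and 411 (400.2 to 422). The order contralateral, late, early of the bulk libraries therefore appeared in fibroblasts and endothelial cells and not in smooth muscle cells. The contralateral smooth muscle value rests on 41 cells, and the endothelial values rest on 814, 74, and 89 cells in the contralateral, early, and late library. By the study's account, the single-cell AVFs were harvested at later mean days than the bulk AVFs of the same name. Fbln1 was at 1141 (1123 to 1159.8), 445 (433 to 458), and 847 (839 to 856) in fibroblasts, and at most 55.7 in smooth muscle and 33.7 in endothelial cells.

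Fbn1, Mfap5, Fbln2, and Efemp2 were higher in fibroblasts of AVFs. Fbn1 was at 581 (567.7 to 594), 1146 (1126 to 1166), and 1142 (1132 to 1151) CPM, and Mfap5 at 487 (475 to 499), 1661 (1637 to 1685), and 1174 (1164 to 1184). Fbln2 was at 319 (309 to 329), 925 (907 to 943), and 684 (677 to 692) in fibroblasts, and at 523, 499.6, and 258 in endothelial cells. Efemp2, which no bulk comparison called, was at 138 (132 to 145), 316 (306 to 327), and 180.1 (176 to 184). Emilin1 was at 78.9, 136, and 53.1 in fibroblasts and at 61.3, 192, and 165 in smooth muscle cells.

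**Figure D4:**
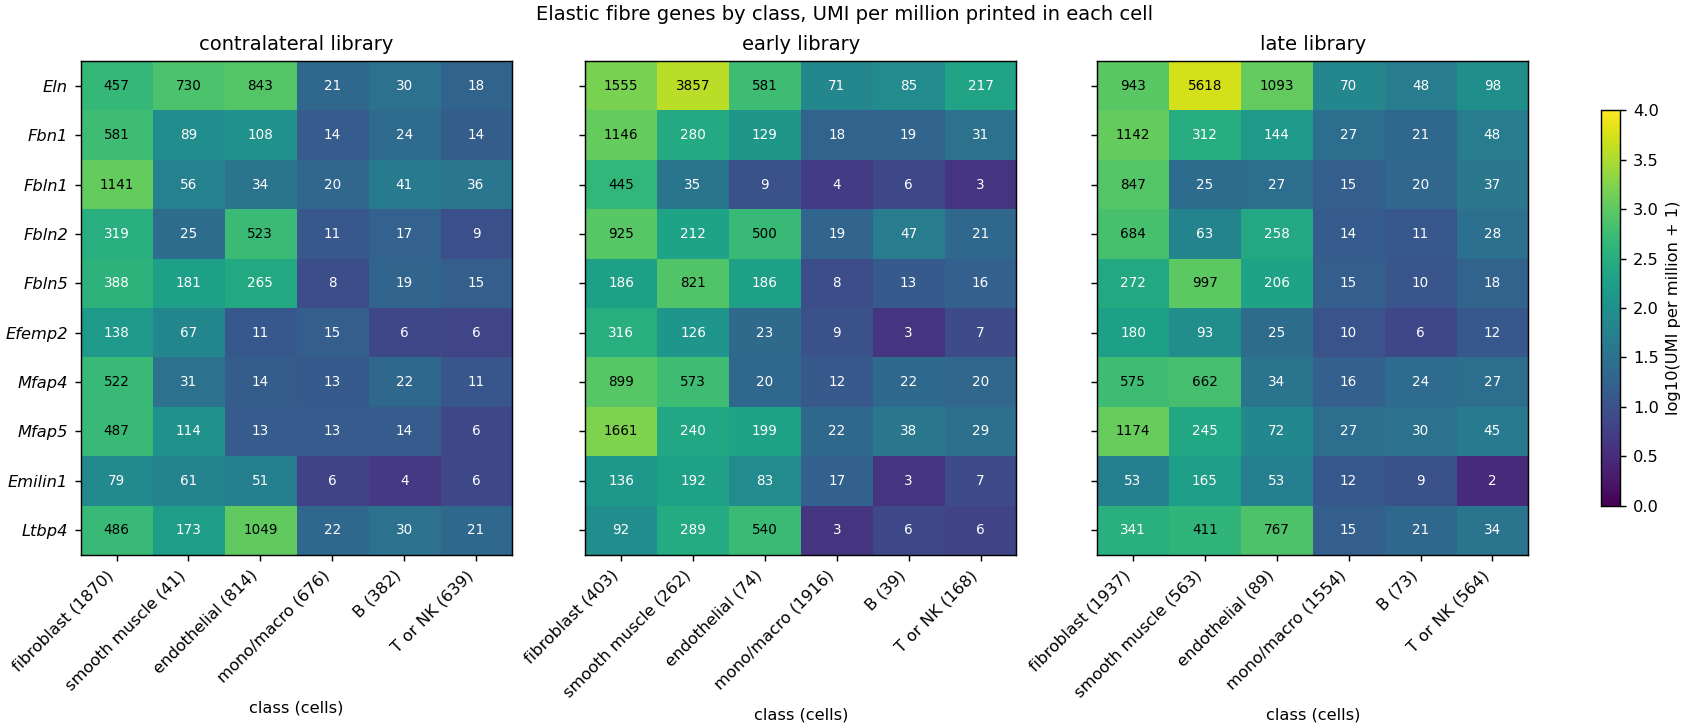
Levels of the 10 genes in CPM for 6 cell classes in the 3 single-cell libraries, with cells per class in brackets and the color on a log10 scale, to be read along each row. Eln is highest in smooth muscle cells of the early (3857) and late (5618) library, and Ltbp4 is highest in endothelial cells of each library.

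Fibroblasts were clustered again, and they differed among themselves in the fibre genes they held. Cells with the markers of Pi16 adventitial fibroblasts had much Fbn1 and little Eln or Mfap4. In the late library these 487 cells had 2129 CPM of Fbn1 (2104 to 2154) and 1417 of Mfap5 (1397 to 1438), but 147 of Eln (140.2 to 153) and 39.1 of Mfap4 (35.8 to 42.6). The 1012 late cells of a cluster led by Eln, Tifa, and Col4a5 (cluster 0) had 662 of Fbn1, 1027 of Mfap5, 1414 of Eln (1398 to 1429), and 923 of Mfap4 (911 to 935). The 376 late cells of a cluster led by Thbs4, Tnc, and C1qtnf3 (cluster 1) lay between these in Fbn1 (984), Mfap5 (1207), Eln (954), and Mfap4 (509.7). Both clusters had the late fibroblast markers (Thbs4, Cilp, Comp) raised, with a mean log2 fold of 2.58 in cluster 0 and 4.21 in cluster 1. By the marker rule, cluster 0 was late fibroblast-like and cluster 1 stayed unnamed. More markers of activated fibroblasts (Tnc, Cthrc1) than late markers (Thbs4) were among the leading genes of cluster 1. Both are given by number here. In the contralateral library, the 153 Pi16-like cells had 1469 of Fbn1, 1267 of Mfap5, 175 of Eln, and 54.7 of Mfap4, and the 3 quiescent-like clusters of 413 to 470 cells had 411 to 549 of Fbn1, 337 to 409 of Mfap5, 405 to 555 of Eln, and 329 to 682 of Mfap4.

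Early fibroblasts were uneven in elastin, which was also among the leading genes of 1 cluster although clustering did not use it. The 58 early cells of cluster 0 had 5964 CPM of Eln (5844 to 6085), above the level of early smooth muscle cells (3857). High Eln in this cluster was not confined to the AVF libraries, but the contralateral value was lower and rests on few cells. The 36 contralateral cells of cluster 0 had 2034 CPM (1889 to 2187). Only 55.6% of them held an Eln UMI, and the interval does not cover this spread between cells. The 318 early cells of cluster 1 had 878 (859 to 897). The same 318 cells had the lowest Ltbp4 of any fibroblast cluster of at least 50 cells (60.7, 55.8 to 65.9), against 258 in the 58 cells beside them and 320.1 to 653 in the quiescent-like clusters. Fbln1 was at 361 and 922 in these 2 early clusters and at 1086 to 1498 in the quiescent-like ones.

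**Figure D5:**
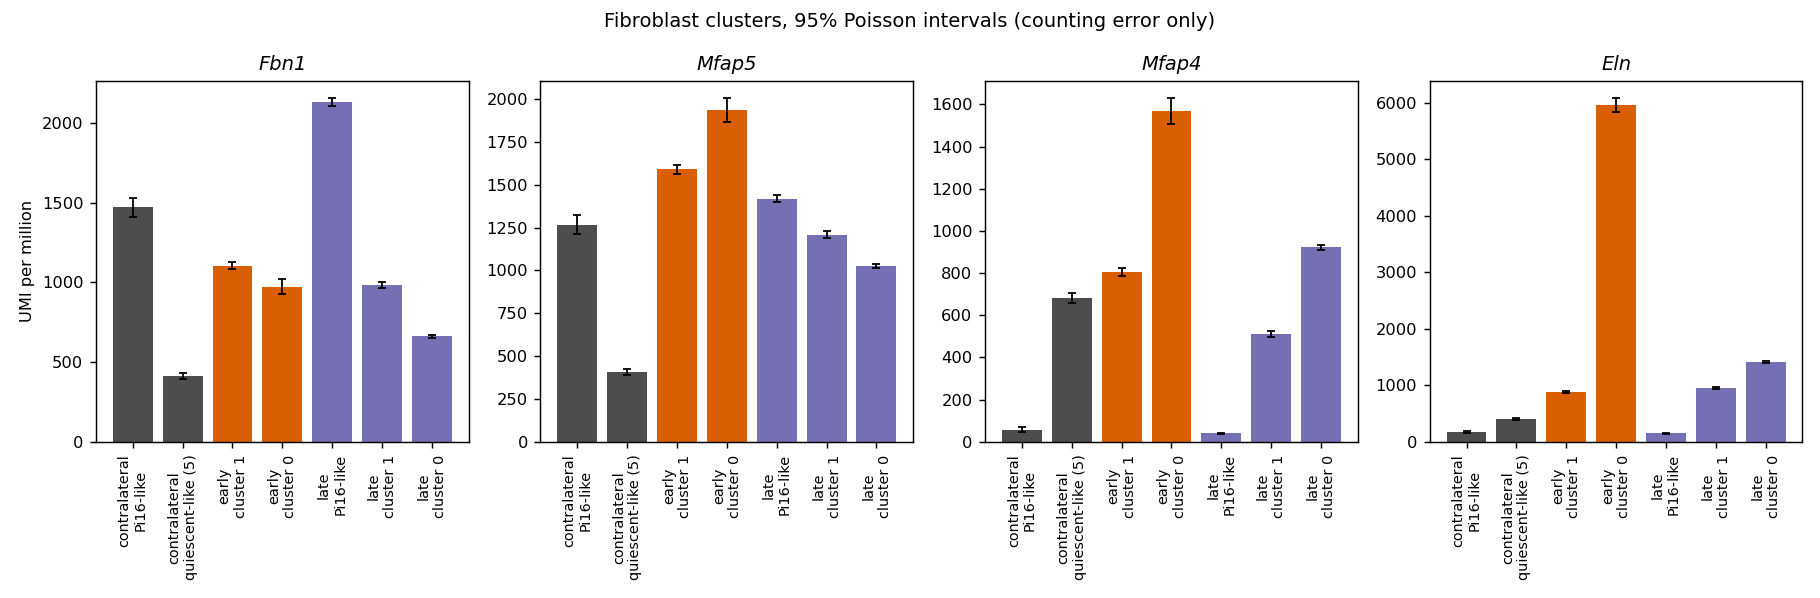
CPM of Fbn1, Mfap5, Mfap4, and Eln in 7 fibroblast clusters of the 3 single-cell libraries, with 95% Poisson intervals for counting error. The Pi16-like clusters have the highest Fbn1 (1469 contralateral, 2129 late) and the lowest Mfap4 (54.7 and 39.1) of these. Low values are to be read against the background in T and NK cells.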

How the data were processed

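The authors deposited read counts per gene for 25 bulk libraries, whole numbers without normalization, and UMI counts per gene and barcode for 3 single-cell libraries. The submitters' processing notes name Cell Ranger 6.0.2, STAR, mm10, and GRCm38. For the bulk table, annotation and strand setting were not given in the sources used. The members and lists were chosen with earlier results of these data known.

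Of 56980 genes, 12673 averaged 100 or more counts after DESeq2 size factors and were tested. edgeR 4.0.16 (R 4.3.3) fitted 1 mean per group to all 25 libraries, with TMM scaling and the quasi-likelihood test. DEGs needed an adjusted p under 0.01 over all genes and a log2 fold change of 1 or more in size. The steps were tested on simulated data. Alternatives were other scaling, filters, DESeq2 1.42.0, limma 3.58.1 voom weights, a sex term, female mice alone, pairs of groups, and each library left out. Replicates were separate vessels.

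Kept barcodes held 200 to 6000 genes, with mitochondrial counts up to 10%, and were clustered with scanpy 1.11.5 (2000 variable genes without members and markers, 12 components, 20 neighbours, leiden resolution 0.5). Scrublet called 0, 2, and 113 doublets in the contralateral, early, and late library, so it did not work in the first 2, and doublets were kept. A cluster of 1595 shallow barcodes stayed unnamed. Named genes were all members, Fbn2, Mfap2, Lox, Loxl1, and up to 3 genes per list with the largest change among DEGs.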

Additional observations from a re-analysis of the deposited data

Results flagged for a closer look

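Of 40 combinations of gene and group examined for a library far from the rest of its group, 4 stood apart by Dixon's criterion, and chance gives about 1 in 20. Early library 10 stood apart for Eln, with 2073 CPM against 726 CPM in the next library, and for Ltbp4, with 115 CPM (114.7) against 46.6 CPM. The same library had the highest fibroblast marker sum of its group (19642 CPM). Mid library 13 stood apart for Eln, with 5097 CPM against 2567 CPM. Contralateral library 632 stood apart for Emilin1, with 256 CPM against 101.3 CPM.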

How the results depend on the processing

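Across 60 member fold changes and 2100 alternative fits of them, 1937 had the same direction and call, 92 lost a call, 32 gained one, and 39 turned sign. The cause was not tested. Turned signs came only from fold changes of at most 0.20 in size. No paired analysis was possible because the bulk groups share no library numbers.

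Counts of member DEGs are given in the order early, mid, and late against contralateral veins. Sample quality weights gave 1, 0, and 0, and female mice alone 1, 0, and 0, against 2, 4, and 2. Calls over all genes fell too. The weights also moved the median of all genes by 0.28, 0.34, and 0.33. Without early libraries 6 and 7, a choice made after seeing the data, early had 5 and late 4 (9.75% and 5.55% of all genes). At an adjusted p under 0.05, late had 4 (10.3% of all genes). For mid against early, with 1 DEG, RLE scaling, filterByExpr, the sex term, female mice alone, only the 2 groups, and leaving out early 6 and 7 gave 0, DESeq2 and an adjusted p under 0.05 gave 3, and the weights 5, where calls over all genes went from 1 to 474, 482, and 636. For late against early, with 4, female mice alone gave 0 and leaving out early 6 and 7 gave 2, where all genes gave 0% and 1.07%. With 1 library left out, the counts were 2 to 5 in mid (2 without mid 13), 1 to 3 in late, 0 to 3 in mid against early, and 2 to 4 in late against early.

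Of the 35 wider-list genes, early against contralateral (12 DEGs) had 5 with the weights, 3 in female mice, and 5 with only the 2 groups, where all genes gave 4.64%, 2.9%, and 5.25%. Mid (8) had 3, 2, and 3, and late (6) had 3, 1, and 3 under the same settings, and 11 with DESeq2 or an adjusted p under 0.05 (10.2% and 10.3% of all genes). With only the 2 groups, all genes gave 3.18% in mid and 2.2% in late. Mid against early (0) had 4 with DESeq2, 11 with the weights, and 4 at an adjusted p under 0.05. Late against early (5) had 13 with the weights, 0 in female mice, 8 with only the 2 groups, and 3 without early 6 and 7, where all genes gave 11.4%, 0%, 4.7%, and 1.07%. Late against mid (0) had 1 with the weights. With 1 library left out, the ranges were 5 to 11 (mid), 0 to 4 (mid against early), and 2 to 6 (late against early).

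Signs turned for Efemp2 early against contralateral (filterByExpr −0.00496, female mice −0.351), Eln early (weights −0.247), Fbln1 late (weights 0.000212, female mice 0.354), and Mfap4 late (female mice 0.199). They also turned for Efemp2 mid against early (weights −0.108), late against early (weights −0.217, without early 6 and 7 −0.101), and late against mid (female mice 0.0204), and for Emilin1 late against mid (no minimum 0.0219, only the 2 groups 0.0056). With 1 library left out, ranges crossing 0 were −0.45 to 0.36 for Eln early, −0.12 to 0.28 for Efemp2 early, −0.0425 to 0.34 for Efemp2 late, −0.0356 to 0.39 for Fbln2 late against early, −0.066 to 0.19 for Efemp2 late against early, −0.17 to 0.25 for Eln late against mid, and −0.11 to 0.0733 for Emilin1 late against mid. The single-cell counts of members highest in fibroblasts (7, 6, and 5) were 6, 6, and 5 at 20% mitochondrial counts, and the same under the other alternatives.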

Other observations

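Genes that cross-link or cut elastin lay in different cell classes of the single-cell libraries, given here as CPM in the contralateral, early, and late library. Lox was at 174, 654, and 279.6 in fibroblasts and at 66.9, 363, and 460.2 in smooth muscle cells, so its late level was higher in smooth muscle, as for Eln. Loxl1 was at 279.5, 495, and 471 in fibroblasts and at 119.8, 264, and 294 in smooth muscle cells. Fbn2, at 8.42, 152, and 42.3, and Mfap2, at 122, 358, and 163, were highest in early fibroblasts. Ltbp2 was at 5.57, 56.7, and 117 in smooth muscle cells and at 0.772, 135, and 35.6 in fibroblasts. Mmp12 was at 26.0, 320.4, and 485 in monocytes and macrophages, and Ctss at 718, 2319.8, and 1733. Slpi was at 3101, 3914, and 2692 in neutrophils and at 15.0, 506, and 175 in monocytes and macrophages. With 1 library per condition, none of these was tested.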
